A study of Mus musculus with 20 samples.

Results

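The TGFβ and BMP pathway was examined in cells derived from NMuMG, an epithelial line of normal mouse mammary gland origin. A list of 47 gene symbols, drawn up by their place in the pathway with earlier results of these data known, was matched by name to the deposited table of 54986 genes. The list holds 9 ligand genes, 6 genes of ligand latency and processing, 10 receptors, 6 signalling Smads, 8 intracellular inhibitors, 4 extracellular or membrane antagonists and the 4 Id genes. Of the 47 genes, 40 had at least 1 count per 1e6 reads (CPM) in at least 2 of the 20 libraries and were tested, among 17103 genes in all. The other 7, Tgfb3, Bmp6, Bmpr1b, Smad9, Grem1, Nog and Id4, were too low for the test and are given by their values.

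RNA was sequenced from 10 conditions in 2 libraries each. The first 5 conditions were untreated NMuMG cells, NMuMG cells treated with TGFβ (for 4 d in the study's description), NMuMG cells carrying an shRNA against hnRNP E1 (E1KD), and M1P and L1P. M1P and L1P are cultures of E1KD cells that had been recovered from the primary tumor (M1P) and from lung metastases (L1P) of NOD/SCID mice injected in the mammary fat pad at 6 wk of age and killed about 12 wk later. Both carry resistance to puromycin, by which they were selected in culture. The other 5 conditions were NMuMG cells with an empty overexpression vector (Empty vector), 2 lines overexpressing the long noncoding RNA Platr18 (clones 12 and 16, each grown from 1 clone), and E1KD cells given a second shRNA, either a scrambled one (E1KD SCR) or one to Platr18 (E1KD Platr18 KD). E1KD SCR and Empty vector carry different vectors by their labels, and E1KD SCR also carries the hnRNP E1 shRNA. The labels do not say whether the duplicates came from separate cultures, so the p-values measure the spread between these libraries, which may be technical.

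TGFβ, activins and BMPs are secreted as dimers that bind pairs of type I and type II receptor kinases. TGFβ and activin receptors phosphorylate Smad2 and Smad3, BMP receptors phosphorylate Smad1, Smad5 and Smad9, and both groups of Smads enter the nucleus with Smad4. TGFβ is held latent by its propeptide, which is tethered to matrix by latent TGFβ binding proteins or to the cell surface by Lrrc32 (GARP). Signalling is limited by secreted ligand traps, by inhibitory Smads, by ubiquitin ligases and by nuclear corepressors, several of which are themselves induced by the pathway. In mammary epithelium TGFβ is known for inducing epithelial-mesenchymal transition (EMT), and the Id genes are classical targets of BMP Smads.

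By the steps between low values, the libraries were scaled to totals of 50.8 to 147.3 M reads (M, 1e6), which makes 3 reads equal to 0.0204 to 0.0591 CPM, and such low values carry counting error besides the spread between libraries. The 10 libraries of NMuMG, TGFβ, E1KD, M1P and L1P held 333 to 492 CPM of mt-Rnr2, a mitochondrial ribosomal RNA, and the 10 vector-line libraries held 113900 to 165100 CPM, so conditions were compared within each kind of library. Pcbp1, the gene of hnRNP E1, had 287 to 312 CPM in NMuMG and 14.2 to 16.6 CPM in E1KD, and 32.3 CPM in Empty vector against 3.28 to 3.46 CPM in E1KD SCR. Pcbp1 had 210 to 219 CPM after TGFβ, 26.5 to 27.6 in M1P and 28.6 to 30.5 in L1P, both above E1KD. Platr18, listed as Lncenc1, had 3.06 to 3.68 CPM in Empty vector, 3090 to 3100 CPM in clone 12, 813 to 820 CPM in clone 16, 2.92 to 3.10 CPM in E1KD SCR and 0.136 to 0.170 CPM in E1KD Platr18 KD. It had 1.24 to 1.45 CPM in NMuMG, 2.40 to 2.70 after TGFβ, 14.6 to 17.9 in E1KD, 25.7 to 26.2 in M1P and 73.3 to 76.9 in L1P. Its log2 fold change was 2.87 in E1KD against NMuMG and -0.12 in E1KD SCR against Empty vector. The E1KD duplicates stood apart from each other, with a median log2 ratio of 0.29 between replicates 1 and 2 over the genes tested, while the other duplicates stayed within 0.07 of 0. The median of all genes tested was shifted in the comparisons with E1KD, by 0.17 against NMuMG, 0.26 against TGFβ and -0.17 from E1KD to M1P on the log2 scale, and their fold changes are to be read against these medians. With each library rescaled by median-of-ratios factors the 3 shifts were 0.02, 0.02 and -0.02. The epithelial marker list summed to 2940 to 2990 CPM in NMuMG, but its members Epcam and Cldn3 were at 3 reads or fewer in each of the 10 conditions. A sum of CPM is weighted to the most abundant markers of a list and need not hold for each marker. Of the lists for other cells, leukocyte markers summed to at most 3.51 CPM, endothelial markers to 0.628 CPM, lung epithelial markers to 0.0394 CPM and adipocyte markers to 0.0838 CPM in any library. Fibroblast markers summed to 42.9 to 51.6 CPM after TGFβ, with Dcn and Lum at 3 reads or fewer there, and to at most 1.68 CPM elsewhere.

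The upstream sequences of a pair of ligand genes that rose in the same way after TGFβ and in E1KD, and of a pair of Id genes, are shown for reference beside their values. They were taken from the RefSeq windows of GRCm38.p6, 250 bases before each start, and are written 5′ to 3′ on the strand of the gene. Capitals mark CAGAC, the core of the element bound by Smad3 and Smad4, or its reverse complement GTCTG, and GGCGCC, a GC-rich element bound by BMP Smads and its own reverse complement. Both strands were searched, and the motifs do not overlap one another here. Tgfb1 lies at chr7:25686752-25687001 on the plus strand and held neither motif. Tgfb2, at chr1:186705990-186706239 on the minus strand, held CAGAC 221 and 204 bases before the start. Id2, at chr12:25096093-25096342 on the minus strand, held GGCGCC 231 bases before the start. Id3, at chr4:136143572-136143821 on the plus strand, held CAGAC or its complement 167 and 68 bases before the start.
Tgfb1: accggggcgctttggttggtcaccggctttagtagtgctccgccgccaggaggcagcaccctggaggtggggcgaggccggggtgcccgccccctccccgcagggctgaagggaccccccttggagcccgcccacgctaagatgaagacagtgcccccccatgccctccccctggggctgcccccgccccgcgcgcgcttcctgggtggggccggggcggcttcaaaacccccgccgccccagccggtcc
Tgfb2: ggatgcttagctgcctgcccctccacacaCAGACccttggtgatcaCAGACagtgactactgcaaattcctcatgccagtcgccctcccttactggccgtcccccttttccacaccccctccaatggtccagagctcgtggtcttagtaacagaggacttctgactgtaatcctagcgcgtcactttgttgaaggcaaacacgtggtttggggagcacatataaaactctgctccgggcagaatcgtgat
Id2: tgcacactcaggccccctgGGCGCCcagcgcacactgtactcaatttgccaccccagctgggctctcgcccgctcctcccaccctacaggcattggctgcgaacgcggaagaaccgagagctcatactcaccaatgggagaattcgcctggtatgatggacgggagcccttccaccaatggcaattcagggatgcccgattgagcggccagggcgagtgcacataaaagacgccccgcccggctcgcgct
Id3: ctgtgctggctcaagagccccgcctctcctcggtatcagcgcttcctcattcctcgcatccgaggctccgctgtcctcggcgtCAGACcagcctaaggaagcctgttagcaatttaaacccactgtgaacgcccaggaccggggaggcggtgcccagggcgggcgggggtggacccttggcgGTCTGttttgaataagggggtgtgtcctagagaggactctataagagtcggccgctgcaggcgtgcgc

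Windows of this kind were found for 32 of the 43 listed genes outside chromosome 18, 44 windows in all. CAGAC was in 20 of the 44 (45.5%) and in 42.2% of the 32851 windows of the table. GGCGCC was in 12 of the 44 (27.3%) and in 9.59% of the table's windows, and the palindrome GTCTAGAC was in 0 of the 44 and in 0.167% of the table's. These are counts of letters in short windows that were not matched on base composition. Some genes have several windows, and overlapping windows of Ltbp4 hold the same GGCGCC, so windows are not independent. By gene, CAGAC was in at least 1 window of 16 of the 32 and GGCGCC of 11. The shares by gene over the whole table were not worked out.

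TGFβ moved the pathway's own genes in both directions. Ligand, latency and inhibitor genes rose, led by Lrrc32, Bmp1, Pmepa1 and Fst, while Id1, Id2, Id3, Bmp4, Bmp7 and Tgfbr3 fell. Of the 40 members tested, 16 rose and 6 fell under 2 conditions together, an adjusted p below 0.05 (limma, Benjamini-Hochberg) and at least a 2-fold change of CPM + 1, a limit called the fold limit hereafter. Over all genes tested, 5.86% rose and 7.77% fell by the same rule. The median log2 fold change was 0.54 over the members and -0.08 over all genes tested. The largest adjusted p from limma among the 22 members called was 5.8e-06. In a bulk sample, fewer cells of a type and less RNA per cell cannot be told apart. The 5 mesenchymal markers listed summed to 535 to 556 CPM in NMuMG and 1380 to 1600 CPM after TGFβ, the epithelial list to 1760 to 2090 CPM after TGFβ, and their part in the results was not tested. The epithelial markers did not move alike. On the log2 scale Krt19 (-4.67), Cdh1 (-0.81), Krt7 (-0.73) and Krt8 (-0.59) were lower, Krt18 was at -0.09 and Cldn4 was higher (4.18). Cldn4 reached 1 CPM in the TGFβ libraries alone, so its rise had to follow.

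In E1KD, 12 of the 40 members rose and 2 fell against NMuMG, where 7.11% and 3.02% of all genes tested did. Most of the members that rose were ligand and latency genes, with Id1 and Id3. The median was 0.32 over the members and 0.17 over all genes tested. The E1KD and TGFβ comparisons share the NMuMG libraries, so they are not independent of each other, and the difference between E1KD and TGFβ was tested directly. By that test 6 members were higher and 10 lower in E1KD than after TGFβ, where 18.5% and 6.18% of all genes were. The 10 include Ltbp2, which passed the filter through the TGFβ libraries alone, so its call had to follow. Without it 9 were lower. The mesenchymal markers summed to 1340 to 1830 CPM in E1KD, and the epithelial list to 2820 to 3960 CPM. Within the epithelial list Krt7 (-2.70), Cdh1 (-0.42) and Cldn4 (-0.09) were lower in E1KD than in NMuMG on the log2 scale. Krt18 (0.38), Krt8 (0.16) and Krt19 (0.08) were higher.

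**Figure D1:**
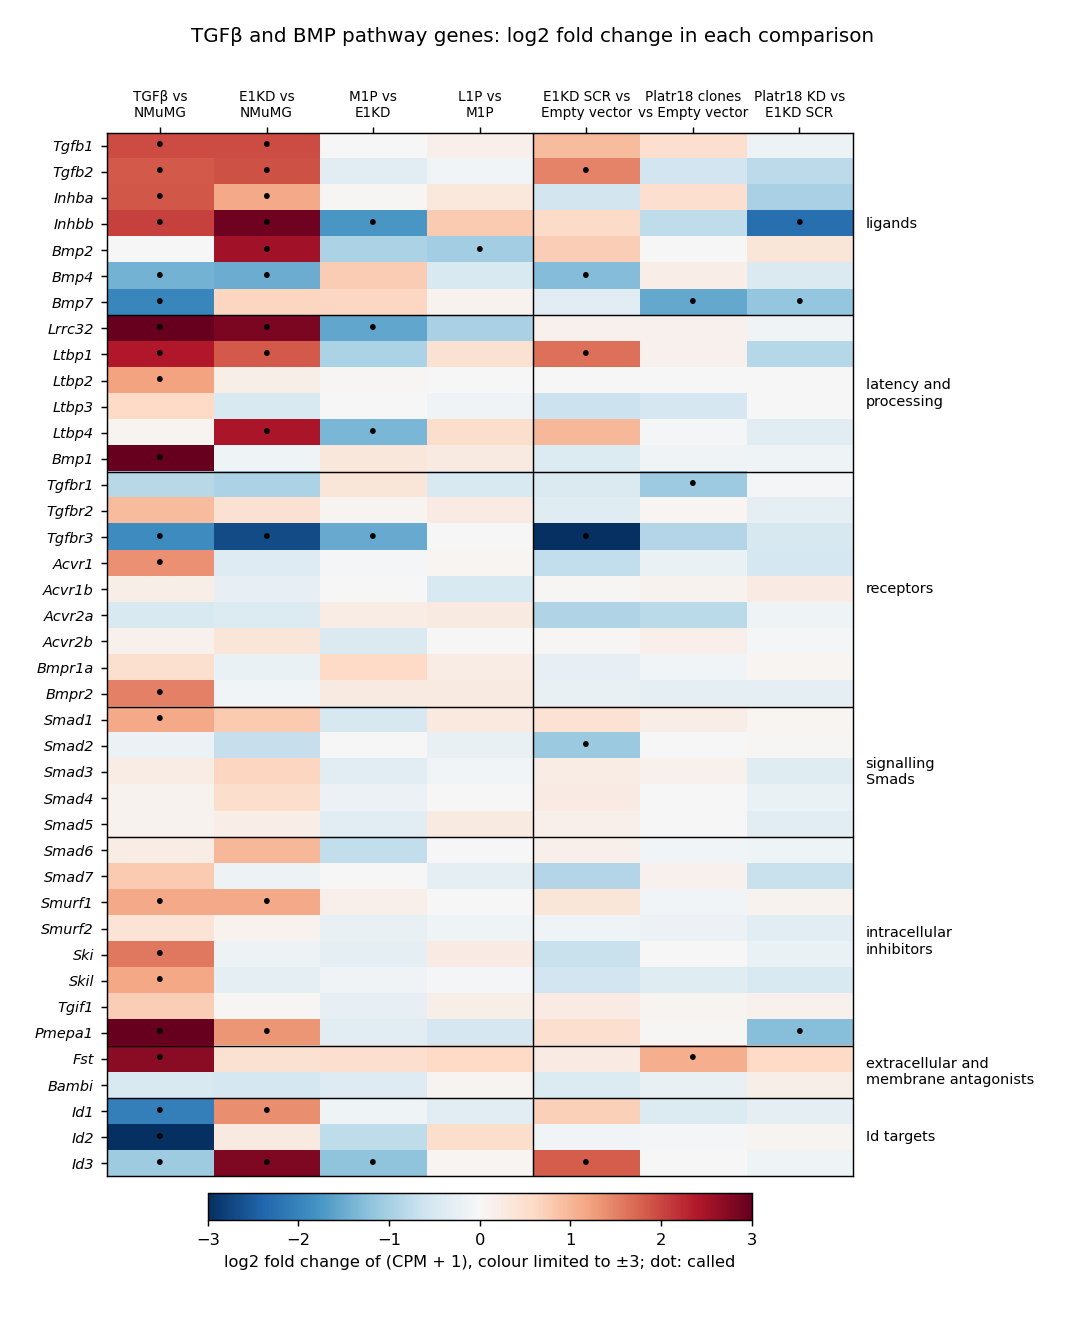
Log2 fold changes of CPM + 1 for the 40 pathway genes tested (rows, grouped by role) in 7 comparisons (columns; the line parts the 2 kinds of library), with color limited to ±3 and a dot on each gene called. Id1, Id2 and Id3 are lower after TGFβ and Id1 and Id3 are higher in E1KD, and fewer dots stand in the M1P, L1P and Platr18 columns.

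Of the 9 ligand genes, 7 were tested. After TGFβ 4 of these rose and 2 fell, and in E1KD 5 rose and 1 fell. Tgfb1, the main TGFβ ligand, had 4.09 and 5.02 CPM in NMuMG, 19.5 and 21.2 after TGFβ, 22.2 and 18.6 in E1KD, 20.1 and 19.99 in M1P, and 22.3 and 22.6 in L1P. The NMuMG libraries were the lowest, and those treated with TGFβ overlapped with E1KD. Tgfb1 rose by a log2 fold change of 1.95 ± 0.11 (SE) after TGFβ (limma, adjusted p = 1.4e-09) and by 1.95 ± 0.11 in E1KD, which is 4.47-fold and 4.48-fold in mean CPM. The difference between E1KD and TGFβ was 0.00 ± 0.11 (limma, adjusted p = 1.0). Tgfb2, a ligand that depends on the co-receptor Tgfbr3 for high-affinity binding, had 1.03 and 0.905 CPM in NMuMG, 5.93 and 6.20 after TGFβ, 6.81 and 5.88 in E1KD, 4.97 and 4.80 in M1P, and 4.67 and 4.46 in L1P. NMuMG was again the lowest, and M1P and L1P were below both E1KD libraries. Tgfb2 rose 6.28-fold after TGFβ and 6.57-fold in E1KD, with log2 fold changes of 1.85 ± 0.075 and 1.90 ± 0.075 (limma, adjusted p = 3.9e-11 and 3.5e-11), and E1KD and TGFβ differed by 0.05 ± 0.075.

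Inhba and Inhbb encode the β subunits of activins and inhibins. Inhba had 25.6 and 26.7 CPM in NMuMG, 93.8 and 100.2 after TGFβ, 65.4 and 52.8 in E1KD, 61.4 and 59.0 in M1P, and 75.9 and 73.8 in L1P. It was highest after TGFβ, where its rise was 1.85 ± 0.095 on the log2 scale (limma, adjusted p = 5.2e-10). In E1KD it rose by 1.14 ± 0.095 (limma, adjusted p = 1.6e-07), a value that fell below the fold limit with median-of-ratios rescaling (0.94), with libraries set to equal sums (0.97), and without E1KD replicate 1 (0.99). Inhbb had 4.67 and 4.90 CPM in NMuMG, 21.8 and 24.6 after TGFβ, 45.4 and 40.3 in E1KD, 12.4 and 11.6 in M1P, and 21.02 and 21.6 in L1P. Unlike Inhba it was highest in E1KD, with no overlap with the TGFβ libraries. It rose by 2.06 ± 0.087 after TGFβ and by 2.92 ± 0.087 in E1KD (limma, adjusted p = 6.5e-11 and 1.5e-12), 4.84-fold and 8.96-fold in mean CPM. E1KD exceeded TGFβ by 0.86 ± 0.087 (limma, adjusted p = 6.7e-07), under the fold limit.

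The BMP ligand genes moved in different directions. Bmp2 had 0 reads in the NMuMG and TGFβ libraries, 5.32 and 4.29 CPM in E1KD, 1.97 and 2.06 in M1P, and 0.432 and 0.505 in L1P. It was detected in E1KD and the lines derived from it. Against a floor of 3 reads per library, Bmp2 in E1KD exceeded NMuMG at least 87.5-fold and TGFβ at least 96.0-fold (limma, adjusted p = 6.7e-12 and 4.3e-12). Bmp4 had 6.58 and 6.24 CPM in NMuMG, 1.87 and 1.65 after TGFβ, 1.77 and 1.53 in E1KD, 3.23 and 3.76 in M1P, and 2.00 and 2.58 in L1P. It fell both after TGFβ (by 1.43 ± 0.098 on the log2 scale) and in E1KD (by 1.48 ± 0.098), with adjusted p = 1.4e-08 and 1.3e-08 from limma. An antisense gene that overlaps Bmp4 had up to 1.98 CPM, and whether reads were counted by strand is not given in the sources used here. Bmp7 had 9.81 and 9.45 CPM in NMuMG, 1.69 and 1.77 after TGFβ, 18.0 and 13.4 in E1KD, 24.7 and 24.2 in M1P, and 25.8 and 26.8 in L1P. It was lower than NMuMG after TGFβ and higher in E1KD, M1P and L1P. Bmp7 fell by 1.96 ± 0.12 after TGFβ (limma, adjusted p = 5.3e-09). Its log2 fold change in E1KD was 0.64 ± 0.12 (limma, adjusted p = 0.000575), under the fold limit, and E1KD exceeded TGFβ by 2.60 ± 0.12 (limma, adjusted p = 1.7e-10).

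Of the 6 genes of latency and processing, all tested, 4 rose after TGFβ and 3 in E1KD. Lrrc32 (ENSMUSG00000090958.2, GRCm38.p6 chr7:98489283-98502182), which holds latent TGFβ at the cell surface, had 0.0885 and 0.245 CPM in NMuMG, 142 and 155 after TGFβ, 7.32 and 7.21 in E1KD, 1.78 and 1.79 in M1P, and 0.491 and 0.369 in L1P. These 5 conditions did not overlap, and TGFβ stood far above the rest. Lrrc32 rose by 7.004 ± 0.081 after TGFβ and by 2.83 ± 0.081 in E1KD on the log2(CPM + 1) scale (limma, adjusted p = 1.6e-16 and 9.8e-13), and was lower in E1KD than after TGFβ by 4.18 (SE 0.081). The NMuMG values rest on 5 and 13 reads. Bmp1, a secreted protease that trims procollagen and latent TGFβ binding proteins, had 13.4 and 13.3 CPM in NMuMG, 128 and 139.7 after TGFβ, 14.4 and 10.1 in E1KD, 15.5 and 15.8 in M1P, and 19.6 and 18.4 in L1P. The TGFβ libraries stood far above the rest, with a 10.1-fold rise and a log2 fold change of 3.23 ± 0.12 (limma, adjusted p = 1.6e-11) against -0.13 ± 0.12 in E1KD.

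Ltbp1, a latent TGFβ binding protein of the matrix, had 12.2 and 12.2 CPM in NMuMG, 64.9 and 72.1 after TGFβ, 55.3 and 38.1 in E1KD, 22.9 and 23.3 in M1P, and 32.0 and 31.8 in L1P. It rose by 2.40 ± 0.12 after TGFβ and by 1.83 ± 0.12 in E1KD (limma, adjusted p = 4.3e-10 and 1.3e-08), with NMuMG lowest. Ltbp4, of the same family, had 0.549 and 0.603 CPM in NMuMG, 0.618 and 0.716 after TGFβ, 10.3 and 5.56 in E1KD, 2.08 and 2.59 in M1P, and 3.55 and 4.02 in L1P. In contrast with Ltbp1 it stood near the NMuMG level after TGFβ (log2 fold change 0.08 ± 0.17; limma, adjusted p = 0.77). It rose in E1KD by 2.45 ± 0.17 (limma, adjusted p = 2.8e-08) and exceeded TGFβ there by 2.37 ± 0.17, although the 2 E1KD libraries differed from each other. Ltbp2, a matrix protein that does not bind latent TGFβ, had 0 reads in both NMuMG libraries, 1.31 and 1.31 CPM after TGFβ, 0.138 and 0.111 in E1KD, 0.140 and 0.177 in M1P, and 0.118 and 0.203 in L1P. Its TGFβ libraries were at least 23.9-fold above the floor of 3 reads per library. Ltbp2 reached 1 CPM in these 2 libraries and in no others, so it entered the test through the group where it is high, and its call had to follow. Without it 15 members rose after TGFβ, 3 of them among the latency genes. Ltbp3 ranged from 93.9 to 107 CPM in NMuMG and from 141 to 163 CPM after TGFβ, a log2 fold change of 0.59 ± 0.16 (limma, adjusted p = 0.0050) that is under the fold limit. In E1KD it had 88.6 and 59.3 CPM, and it was lower there than after TGFβ by -1.06 ± 0.16 (limma, adjusted p = 3.2e-05).

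Among the 9 receptors tested, 2 rose and 1 fell after TGFβ, and 1 fell in E1KD. Tgfbr3 (betaglycan; ENSMUSG00000029287.14, chr5:107106570-107289630), the co-receptor that presents TGFβ2, had 16.9 and 18.4 CPM in NMuMG, 3.67 and 4.43 after TGFβ, 2.49 and 1.42 in E1KD, 0 and 0.0532 in M1P, and 0.0196 and 0.0194 in L1P. Its level was lower in each condition than in NMuMG, and M1P and L1P held 0 to 3 reads. Tgfbr3 fell by 1.89 ± 0.14 after TGFβ and by 2.68 ± 0.14 in E1KD (limma, adjusted p = 2.4e-08 and 6.7e-10). The difference of -0.79 ± 0.14 between E1KD and TGFβ passed the fold limit with median-of-ratios rescaling (-1.06), with equal sums (-1.05), with pseudocount 0.1 (-1.06) and without E1KD replicate 1 (-1.06). Acvr1 (ALK2), a type I receptor for BMPs, had 19.1 and 19.4 CPM in NMuMG, 49.3 and 54.3 after TGFβ, 16.97 and 12.4 in E1KD, 13.9 and 14.3 in M1P, and 15.2 and 14.5 in L1P. Bmpr2, the BMP type II receptor, had 47.7 and 48.8 CPM in NMuMG, 136 and 141 after TGFβ, 49.8 and 41.2 in E1KD, 54.9 and 54.2 in M1P, and 66.9 and 64.3 in L1P. Both were highest after TGFβ, with no overlap with any other of the 5 conditions. Acvr1 rose by 1.38 ± 0.12 and Bmpr2 by 1.501 ± 0.089 (limma, adjusted p = 1.3e-07 and 2.5e-09), and both were lower in E1KD than after TGFβ, by -1.77 ± 0.12 and -1.59 ± 0.089.

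Tgfbr1 (ALK5), the type I receptor of TGFβ, had 132 and 134 CPM in NMuMG, 72.2 and 76.7 after TGFβ, 75.3 and 62.2 in E1KD, 90.3 and 87.4 in M1P, and 65.5 and 64.2 in L1P. NMuMG was the highest. The log2 fold changes of -0.83 ± 0.079 after TGFβ and -0.95 ± 0.079 in E1KD (limma, adjusted p = 4.7e-07 and 1.6e-07) are under the fold limit, which the second passed with median-of-ratios rescaling (-1.15), equal sums (-1.13) and without E1KD replicate 1 (-1.09). Tgfbr2, its type II partner, was lowest in NMuMG, with 47.5 and 49.4 CPM in NMuMG, 91.7 and 95.7 after TGFβ and 73.4 and 61.0 in E1KD, and a log2 fold change of 0.94 ± 0.078 after TGFβ (limma, adjusted p = 1.0e-07), under the fold limit. Acvr1b, Acvr2a, Acvr2b and Bmpr1a, the other activin and BMP receptors tested, had log2 fold changes between -0.45 and 0.49 after TGFβ and between -0.42 and 0.37 in E1KD. Acvr2a overlaps Orc4 on the other strand, which had up to 49.0 CPM.

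Of the 5 signalling Smads tested, Smad1 rose after TGFβ. Smad1, a BMP Smad, had 13.6 and 13.1 CPM in NMuMG, 30.2 and 31.1 after TGFβ, 27.5 and 20.3 in E1KD, 16.9 and 16.7 in M1P, and 20.9 and 20.9 in L1P. The TGFβ libraries were the highest and did not overlap with E1KD. Its log2 fold change was 1.14 ± 0.10 after TGFβ and 0.78 ± 0.10 in E1KD (limma, adjusted p = 2.0e-07 and 1.3e-05), the latter under the fold limit. Smad2, an activin and TGFβ Smad, had 16.8 and 16.6 CPM in NMuMG, 13.97 and 15.2 after TGFβ, 12.1 and 8.26 in E1KD, 9.98 and 10.3 in M1P, and 8.50 and 8.62 in L1P. It was highest in NMuMG and was not called in these 5 conditions. Smad3, Smad4 and Smad5 had log2 fold changes between 0.10 and 0.23 after TGFβ and between 0.20 and 0.64 in E1KD. In E1KD, 0 of the 5 were called, since each was under the fold limit.

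Of the 8 intracellular inhibitors, 4 rose after TGFβ and 2 in E1KD. Pmepa1, a membrane protein that binds Smad2 and Smad3 and keeps them from the receptor, had 55.4 and 57.9 CPM in NMuMG, 436 and 469.8 after TGFβ, 156 and 132 in E1KD, 115 and 112 in M1P, and 78.3 and 79.8 in L1P. The 5 conditions did not overlap. Pmepa1 rose by 2.98 ± 0.089 after TGFβ and by 1.32 ± 0.089 in E1KD (limma, adjusted p = 1.4e-12 and 1.5e-08), 7.997-fold and 2.54-fold in mean CPM. Smurf1, a ubiquitin ligase for BMP Smads and receptors, had 27.2 and 28.9 CPM in NMuMG, 58.7 and 66.8 after TGFβ, 68.5 and 57.1 in E1KD, 69.4 and 70.8 in M1P, and 71.5 and 68.2 in L1P. It was lowest in NMuMG and alike after TGFβ and in E1KD, which differed by 0.00 ± 0.085 (limma, adjusted p = 1.0). Smurf1 rose by 1.13 ± 0.085 in both comparisons (limma, adjusted p = 3.8e-08 and 5.5e-08), and the E1KD value was under the fold limit with median-of-ratios rescaling (0.93) and equal sums (0.96).

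Ski, a corepressor that binds Smads in the nucleus, had 49.1 and 51.8 CPM in NMuMG, 144 and 160.2 after TGFβ, 49.3 and 42.0 in E1KD, 36.6 and 37.0 in M1P, and 43.1 and 44.7 in L1P. Its relative Skil (SnoN) had 83.7 and 85.8 CPM in NMuMG, 183 and 196 after TGFβ, 75.8 and 62.1 in E1KD, 64.3 and 64.1 in M1P, and 62.3 and 61.1 in L1P. Both were highest after TGFβ. Ski rose by 1.57 ± 0.094 and Skil by 1.15 ± 0.083 (limma, adjusted p = 2.8e-09 and 2.4e-08), and both were lower in E1KD than after TGFβ, by -1.72 ± 0.094 and -1.45 ± 0.083. The inhibitory Smads stayed under the fold limit. Smad7, the feedback inhibitor of TGFβ receptors, had a log2 fold change of 0.79 ± 0.099 after TGFβ (limma, adjusted p = 9.0e-06) and -0.16 ± 0.099 in E1KD. Smad6, which acts mainly on BMP Smads, had 0.21 ± 0.14 after TGFβ and 0.99 ± 0.14 in E1KD (limma, adjusted p = 0.22 and 3.2e-05). The corepressor Tgif1 had 0.73 ± 0.065 after TGFβ, and the ubiquitin ligase Smurf2 had 0.42 ± 0.084.

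The ligand trap Fst (follistatin), which neutralizes activins, had 6.0 and 5.85 CPM in NMuMG, 43.7 and 44.6 after TGFβ, 9.66 and 7.58 in E1KD, 12.3 and 13.0 in M1P, and 19.1 and 20.4 in L1P. It was highest after TGFβ and next in L1P. Fst rose 7.46-fold after TGFβ, by 2.71 ± 0.088 on the log2 scale (limma, adjusted p = 3.9e-12). Its log2 fold change in E1KD was 0.47 ± 0.088 (limma, adjusted p = 0.00045). The pseudoreceptor Bambi had 0.814 and 1.15 CPM in NMuMG and 0.0177 to 0.534 CPM in the other 4 of these conditions.

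The Id genes encode helix-loop-helix proteins without a DNA-binding domain. Id1 had 85.9 and 92.1 CPM in NMuMG, 21.02 and 20.3 after TGFβ, 253 and 223 in E1KD, 218 and 215 in M1P, and 174 and 174 in L1P. It was lower after TGFβ and higher in E1KD, M1P and L1P than in NMuMG. Id1 fell by 2.06 ± 0.12 after TGFβ and rose by 1.41 ± 0.12 in E1KD (limma, adjusted p = 1.5e-09 and 1.4e-07). Id3 had 8.001 and 7.83 CPM in NMuMG, 3.12 and 3.46 after TGFβ, 68.0 and 55.4 in E1KD, 25.8 and 26.0 in M1P, and 26.9 and 27.6 in L1P. It had the same order around NMuMG as Id1. Id3 rose by 2.81 ± 0.13 in E1KD (limma, adjusted p = 1.8e-10), a 7.79-fold difference, and its fall by 1.05 ± 0.13 after TGFβ (limma, adjusted p = 5.8e-06) was under the fold limit with median-of-ratios rescaling (-0.93) and without TGFβ replicate 1 (-0.997). Id2 had 334 and 312 CPM in NMuMG, 23.1 and 21.7 after TGFβ, 430.5 and 356 in E1KD, 232 and 232 in M1P, and 336 and 336 in L1P. It was far lower after TGFβ than in any other condition, with a fall of 3.79 ± 0.074 on the log2 scale (limma, adjusted p = 2.1e-14). Its log2 fold change in E1KD was 0.28 ± 0.074 (limma, adjusted p = 0.0054). Tested directly, Id1, Id2 and Id3 were higher in E1KD than after TGFβ by 3.46 ± 0.12, 4.07 ± 0.074 and 3.86 ± 0.13 (limma, adjusted p at most 3.6e-12).

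**Figure D2:**
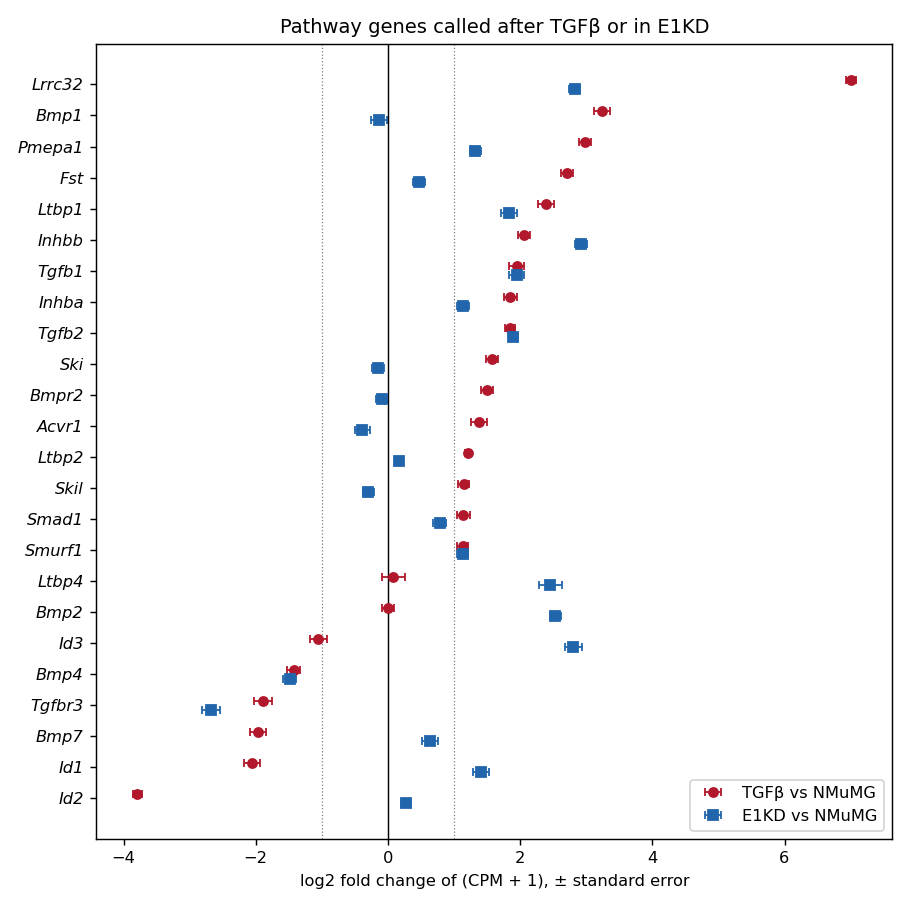
Log2 fold change of CPM + 1 against NMuMG (horizontal axis, ± standard error) of the 24 pathway genes called after TGFβ (red circles) or in E1KD (blue squares), with dotted lines at the fold limit. Tgfb1, Tgfb2, Smurf1 and Bmp4 have nearly the same value in both comparisons, and Id1 and Id3 lie on opposite sides of 0.

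Of the members called in both comparisons, 12 in number, 10 had the same direction and 2, Id1 and Id3, had opposite directions. The share of all genes with the same direction was not worked out. The NMuMG libraries shared by both comparisons favor the same direction, so these counts are not a result about the members. Id2, Bmp7 and Bmp1 were called in the TGFβ comparison and not in E1KD, and the direct test placed each of them apart between E1KD and TGFβ (limma, adjusted p at most 1.7e-10). On a scale per exon length, which allows genes to be compared, the levels in NMuMG were led by Id2 with 133 CPM per kilobase and Id1 with 76.7, while Id3 had 4.42. Among the receptors Tgfbr1 had 20.4 CPM per kilobase, against 5.91 for Tgfbr2, 5.48 for Acvr1b and 4.49 for Bmpr1a. Smad3 had 15.8, Smad4 8.87, Smad5 7.16, Smad1 2.13 and Smad2 1.90. The ligand levels were led by Inhba with 4.09, followed by Bmp4 with 2.85, Bmp7 with 2.40, Tgfb1 with 0.903 and Tgfb2 with 0.167 CPM per kilobase. After TGFβ, Pmepa1 with 92.2 and Lrrc32 with 31.7 CPM per kilobase were above every listed receptor and Smad.

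A further 3 lists were read beside the members, chosen, like the members, with earlier results of these data known. Of 82 other genes of the pathway, 41 rows of the table were tested, with Hgs under 2 identifiers. After TGFβ 3 of these rose and 2 fell, among them Thbs1, an activator of latent TGFβ (5.16), the ligand Gdf11 (1.64) and the Smad phosphatase gene Ctdspl (-1.63), each as a log2 fold change. In E1KD 5 rose, among them Gdf11 (1.71), the BMP-binding protein Bmper (1.64) and the endocytic adaptor Dab2 (1.46). Between E1KD and TGFβ 6 were higher and 2 lower in E1KD, among them Thbs1 (-4.18), Itgb6 (1.75) and Itgav (-1.44), integrin subunits that bind latent TGFβ. Of 12 TGFβ response genes, 11 were tested, and 8 rose after TGFβ and 6 in E1KD. The matrix protein Fn1 was at 5.86 and 3.76, and the EMT factor Snai1 at 2.78 and 2.00 in the 2 comparisons. Of 8 BMP response genes 4 were tested. Among these Hey1 fell after TGFβ (-1.45), and the transcription factor genes Atoh8 (4.13), Msx1 (1.72) and Gata2 (1.07) rose in E1KD. Dab2, Msx1 and Gata2 reached 1 CPM in the E1KD libraries and in no others, and so passed the filter through the group where they are high. Tagln, among the TGFβ response genes that rose after TGFβ, did so through the TGFβ libraries alone. It had 8.04 to 8.26 CPM there and at most 0.607 CPM elsewhere. The calls of these genes in those groups had to follow.

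The tumor and metastasis lines were compared with the cells they came from. From E1KD to M1P 5 members fell and 0 rose by limma, where 3.15% of all genes tested fell. The median was -0.15 over the members and -0.17 over all genes. The 5 were Inhbb (-1.76 ± 0.087), Lrrc32 (-1.57 ± 0.081), Tgfbr3 (-1.502 ± 0.14), Ltbp4 (-1.38 ± 0.17) and Id3 (-1.21 ± 0.13), with adjusted p from limma between 1.3e-09 and 2.8e-05. Each had moved in E1KD against NMuMG, and the values of M1P lay between those of E1KD and NMuMG except for Tgfbr3, which went from 2.49 and 1.42 CPM to 0 and 3 reads. These calls share the E1KD libraries with the comparison against NMuMG. Pcbp1 itself was higher in M1P than in E1KD, with a log2 fold change of 0.78 (limma, adjusted p = 6.8e-06), and its part in these differences was not tested. With only E1KD and M1P in the fit, Tgfbr3, Ltbp4 and Id3 had adjusted p = 0.076, 0.17 and 0.059 from limma, and without E1KD replicate 1 Ltbp4 had a log2 fold change of -0.98. Bmp2 (-0.94 ± 0.086) and Ltbp1 (-0.96 ± 0.12) were just under the fold limit and passed it without E1KD replicate 2 (-1.07 and -1.22). Tgfb1 and Inhba had log2 fold changes of -0.02 ± 0.11 and 0.03 ± 0.095 between M1P and E1KD. Of the other pathway genes, Thbs1 (-2.90) and Dab2 (-1.19) fell. The ligand gene Nodal passed the filter through M1P alone, with 1.28 and 1.40 CPM there and at most 0.0197 CPM in any other condition, so its differences into M1P and L1P are given as these levels. Of the response lists, Fn1 (-1.81) and Ctgf (-1.21), a matricellular protein gene, fell, as did Atoh8 (-2.96), Msx1 (-1.72) and Hey1 (-1.22). Dab2 and Msx1 had passed the filter through E1KD alone, so their falls into M1P had to follow.

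**Figure D3:**
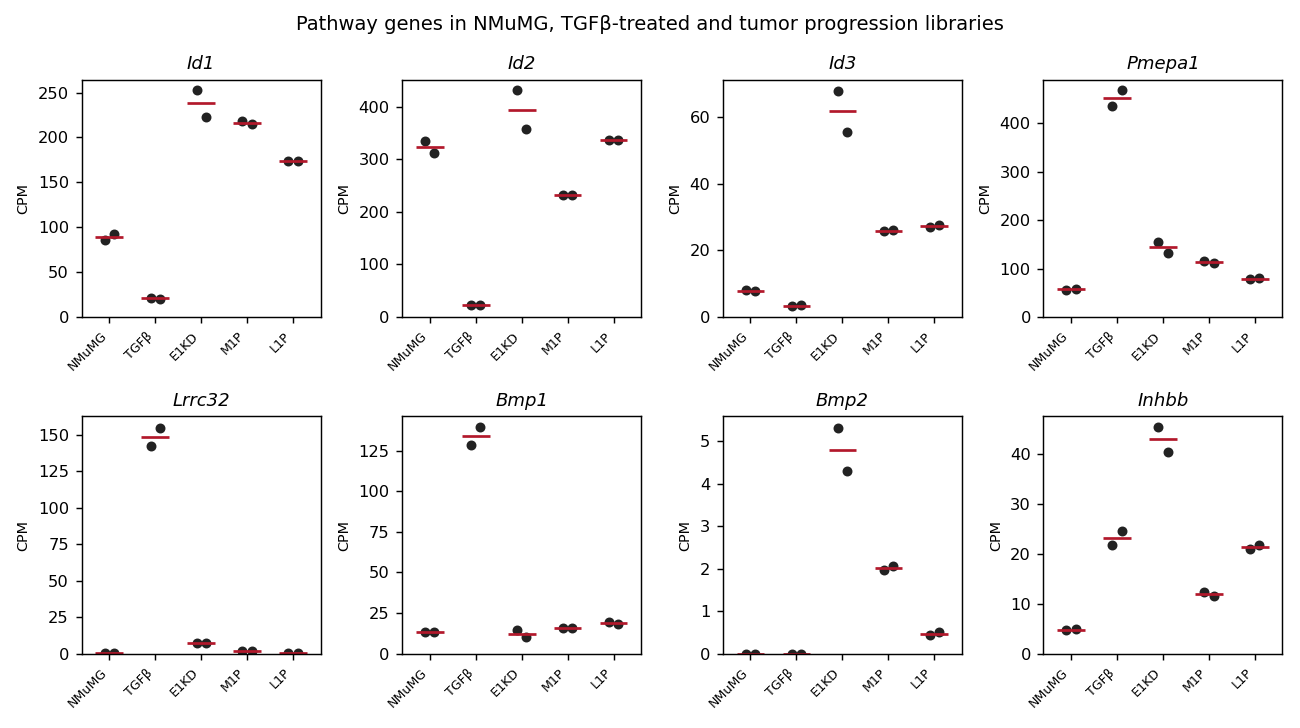
CPM (vertical axes, each from 0) of 8 pathway genes in the 2 libraries (points) and their mean (red line) for NMuMG, TGFβ, E1KD, M1P and L1P. Id3 and Inhbb are highest in E1KD and lower in M1P, Lrrc32, Bmp1 and Pmepa1 are highest after TGFβ, and Bmp2 falls from E1KD to L1P.

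From M1P to L1P 1 member fell, Bmp2, where 0.474% of all genes tested fell. Its values went from 1.97 and 2.06 CPM to 0.432 and 0.505 CPM, a 4.30-fold difference and a log2 fold change of -1.04 ± 0.086 (limma, adjusted p = 1.3e-06). Bmp2 is below the filter of a mean of 5 CPM, and under that filter 0 members were called. Lrrc32 was at -0.96 ± 0.081 (limma, adjusted p = 1.5e-06), under the fold limit, and passed it with equal sums (-1.23), with pseudocount 0.1 (-1.84) and without L1P replicate 1 (-1.02). Inhbb (0.79 ± 0.087), Fst (0.60 ± 0.088), Id2 (0.54 ± 0.074) and Pmepa1 (-0.51 ± 0.089) had adjusted p under 0.05 from limma and were also under the fold limit. Of the response lists Fn1 (1.59) and Atoh8 (1.90) rose. The mesenchymal markers summed to 1440 CPM in M1P and 1480 to 1490 CPM in L1P. The epithelial list summed to 2930 to 2980 CPM in M1P and 1830 to 1850 CPM in L1P. Its markers did not move alike. From M1P to L1P Krt18 (-0.96), Krt8 (-0.86), Krt19 (-0.22) and Krt7 (-0.12) were lower on the log2 scale, while Cdh1 was higher (0.63).

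hnRNP E1 silencing was seen a second time in E1KD SCR against Empty vector, with libraries of the other kind and none shared with the first comparison. Here 3 members rose and 3 fell, where 5.99% of all genes tested were called. The median was 0.02 over the members and 0.02 over all genes tested. Tgfb2, with 0.479 and 0.637 CPM in Empty vector and 3.38 and 3.37 in E1KD SCR, rose by 1.49 ± 0.075 (limma, adjusted p = 8.1e-10). Ltbp1, with 20.9 and 21.1 CPM in Empty vector and 66.5 and 69.4 in E1KD SCR, rose by 1.65 ± 0.12 (limma, adjusted p = 6.2e-08). Id3, with 4.95 and 5.14 CPM in Empty vector and 17.6 and 23.03 in E1KD SCR, rose by 1.81 ± 0.13 (limma, adjusted p = 4.0e-08). These rises were 6.05-fold, 3.24-fold and 4.03-fold in mean CPM. Bmp4, with 4.99 and 4.55 CPM in Empty vector and 1.39 and 1.27 in E1KD SCR, fell by 1.31 ± 0.098 (limma, adjusted p = 8.5e-08). Tgfbr3, with 13.1 and 11.2 CPM in Empty vector and 0.593 and 0.411 in E1KD SCR, fell by 3.13 ± 0.14 (limma, adjusted p = 1.7e-10), or 24.2-fold in mean CPM. Smad2, with 37.7 and 38.5 CPM in Empty vector and 17.5 and 16.4 in E1KD SCR, fell by 1.12 ± 0.12 (limma, adjusted p = 2.1e-06). Smad2 had been at -0.68 ± 0.12 in the other comparison, and the difference between the comparisons was 0.44 ± 0.16 (limma, adjusted p = 0.069).

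Of the 14 members called in E1KD against NMuMG, 13 had the same direction in E1KD SCR, 12 of them with an adjusted p under 0.05 from limma and 5 of them called. Over the 1733 genes of all kinds called in E1KD against NMuMG, 94.0% had the same direction and 39.8% were called as well. The exception among the members was Inhba, which had 19.8 and 18.0 CPM in Empty vector and 12.4 and 13.0 in E1KD SCR, a log2 fold change of -0.54 ± 0.095 (limma, adjusted p = 0.00035). Tgfb1 went from 1.73 and 1.36 to 3.53 and 4.21 CPM, a log2 fold change of 0.94 ± 0.11 (limma, adjusted p = 7.9e-06). It passed the fold limit with equal sums (1.02), with pseudocount 0.1 (1.28) and without Empty vector replicate 1 (1.04) or E1KD SCR replicate 1 (1.04). Ltbp4 went from 0.0959 and 0.0435 to 1.04 and 1.21 CPM, with a log2 fold change of 0.99 ± 0.17 (limma, adjusted p = 0.00036) that passed the limit under equal sums (1.17), with pseudocount 0.1 (2.87) and without replicate 1 of Empty vector (1.025) or E1KD SCR (1.045). Bmp2, with 0 reads and 1 read in Empty vector, had 0.744 and 0.635 CPM in E1KD SCR. Lrrc32 stayed between 0.0724 and 0.191 CPM in these 4 libraries.

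The effect of hnRNP E1 silencing in the first kind of library, less that in the second, was tested for each gene. It was higher by the fold limit for 7 members and lower for 0 by limma, where 2.70% of all genes tested were higher. The median was 0.38 over the members and 0.17 over all genes. The 7 were Lrrc32 (2.70), Inhbb (2.36), Bmp2 (1.78), Inhba (1.68), Ltbp4 (1.46), Tgfb1 (1.01) and Id3 (1.00), with adjusted p from limma between 1.6e-09 and 0.0011. Tgfb1 was under the limit with median-of-ratios rescaling (0.84), with equal sums (0.84), and without replicate 1 of NMuMG (0.89), E1KD (0.89), Empty vector (0.90) or E1KD SCR (0.91). Id3 was under it with those rescalings (0.84 and 0.82), without replicate 1 of E1KD (0.86) or E1KD SCR (0.815) and without replicate 2 of NMuMG (0.99) or Empty vector (0.98). Ltbp4 was at 0.64 with pseudocount 0.1 (limma, adjusted p = 0.26), and in mean CPM E1KD exceeded NMuMG 13.8-fold and E1KD SCR exceeded Empty vector 16.1-fold. Bmp7, at 0.96 ± 0.18, passed the limit without replicate 2 of E1KD (1.16), Empty vector (1.07) or E1KD SCR (1.10). The kind of library and the vectors differ between the comparisons and cannot be told apart.

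**Figure D4:**
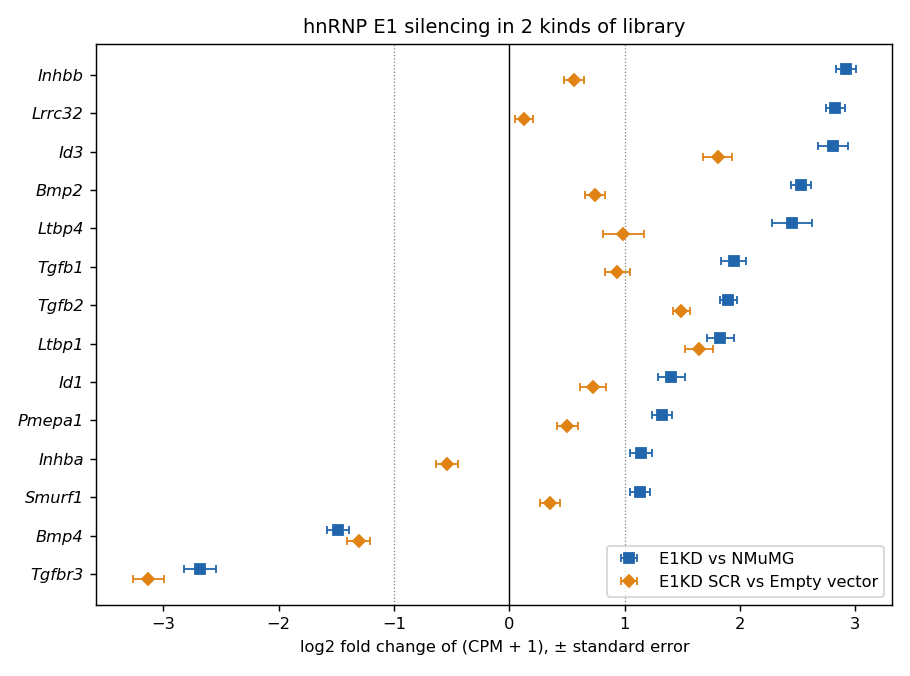
Log2 fold change of CPM + 1 (horizontal axis, ± standard error) with hnRNP E1 silencing for the 14 pathway genes called in E1KD against NMuMG (blue squares) and for the same genes in E1KD SCR against Empty vector (orange diamonds), with dotted lines at the fold limit. Tgfb2, Ltbp1, Bmp4 and Tgfbr3 lie close together, Lrrc32 and Inhbb lie far apart, and Inhba lies on opposite sides of 0.

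Overexpression of Platr18 in NMuMG was represented by 2 clones, which were averaged and compared with Empty vector. The SE and adjusted p of such an average rest on the spread between duplicate libraries. They leave out the spread between the clones, so they do not measure how well an effect of Platr18 overexpression is known. Of the members 1 rose and 2 fell, where 1.46% of all genes tested were called, and the median was -0.02 over the members and 0.01 over all genes. Tgfbr1 had 117 and 110.5 CPM in Empty vector, 35.4 and 32.8 in clone 12, and 82.6 and 81.0 in clone 16. Its average fell by 1.09 ± 0.068 (limma, adjusted p = 4.0e-08), with most of the difference in clone 12. Bmp7 had 6.68 and 5.62 CPM in Empty vector, 3.65 and 3.85 in clone 12, and 0.222 and 0.335 in clone 16. Its average fell by 1.53 ± 0.11 (limma, adjusted p = 1.3e-07), with most of the difference in clone 16. Fst had 12.4 and 12.5 CPM in Empty vector, 32.0 and 33.2 in clone 12, and 23.2 and 23.01 in clone 16. It was higher in both clones and rose by 1.08 ± 0.076 (limma, adjusted p = 1.4e-07). With 1 clone at a time, Tgfbr1 was at -0.47 in clone 16, Bmp7 at -0.59 in clone 12 and Fst at 0.84 in clone 16, each under the fold limit.

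More members were called between the clones than between their average and Empty vector, as were more of all genes tested (750 against 249). An average of clones on opposite sides of Empty vector cancels their differences, so the counts are not alike. Between clone 16 and clone 12, 7 members were called, 4 higher and 3 lower in clone 16, where 4.39% of all genes tested were called. Inhbb had 3.37 and 3.92 CPM in Empty vector, 0 reads in both libraries of clone 12, and 6.65 and 6.30 CPM in clone 16. Clone 12 was at least 80.5-fold lower than Empty vector and clone 16 at least 143-fold higher than clone 12, against a floor of 3 reads per library. Tgfbr3 had 13.1 and 11.2 CPM in Empty vector, 2.56 and 2.78 in clone 12, and 13.1 and 12.6 in clone 16. Clone 16 stood at the level of Empty vector and clone 12 below it, a difference of 1.92 ± 0.14 between the clones (limma, adjusted p = 6.8e-08). Pmepa1 had 20.4 and 18.4 CPM in Empty vector, 11.2 and 11.6 in clone 12, and 32.2 and 36.6 in clone 16. Id3 had 4.95 and 5.14 CPM in Empty vector, 8.91 and 10.4 in clone 12, and 2.41 and 2.60 in clone 16. Bmp4 had 4.99 and 4.55 CPM in Empty vector, 9.73 and 10.4 in clone 12, and 2.76 and 3.07 in clone 16. In these 3 genes the clones lay on opposite sides of Empty vector. Clone 16 less clone 12 was 1.51 ± 0.089 for Pmepa1, -1.60 ± 0.13 for Id3 and -1.498 ± 0.098 for Bmp4 (limma, adjusted p at most 2.1e-07). For Tgfbr1 and Bmp7 the difference was 1.24 ± 0.079 and -1.90 ± 0.12. Tgfb2 had 0.479 and 0.637 CPM in Empty vector, 4 and 6 reads in clone 12 and 1 read in each library of clone 16, with an average log2 fold change of -0.58 ± 0.065 (limma, adjusted p = 1.3e-05) that was -2.21 with pseudocount 0.1. The mesenchymal markers summed to 656 to 694 CPM in Empty vector, 814 to 917 in clone 12 and 868 to 910 in clone 16. The epithelial list summed to 3200 to 3530, 3830 to 4430 and 3640 to 3740 CPM in the same order. The part of both lists in the results was not tested. Of the other pathway genes 0 were called between the averaged clones and Empty vector by the adjusted p and the fold limit together. Fn1 rose among the TGFβ response genes (1.08). Thbs1 (-2.34), Lefty1 (2.29) and Itgb6 (1.51) differed between clone 16 and clone 12.

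Platr18 silencing in E1KD cells was compared with E1KD SCR, whose Platr18 level overlapped with that of Empty vector. Of the members 3 fell and 0 rose by limma, where 0.994% of all genes tested fell. The median was -0.17 over the members and -0.02 over all genes. Inhbb had 5.64 and 6.08 CPM in E1KD SCR and 0.407 and 0.450 in E1KD Platr18 KD. It fell 13.7-fold, by 2.26 ± 0.087 on the log2 scale (limma, adjusted p = 4.0e-10). Pmepa1 had 26.5 and 29.3 CPM in E1KD SCR and 10.5 and 11.2 in E1KD Platr18 KD, and fell by 1.28 ± 0.089 (limma, adjusted p = 1.4e-07). Bmp7 had 4.17 and 5.29 CPM in E1KD SCR and 1.61 and 1.46 in E1KD Platr18 KD, and fell by 1.17 ± 0.12 (limma, adjusted p = 1.1e-05). In each of the 3 genes the groups did not overlap, and the silenced cells were also lower than Empty vector. Inhba had 12.4 and 13.0 CPM in E1KD SCR and 6.39 and 5.65 after Platr18 silencing, which is -0.96 ± 0.095 on the log2 scale (limma, adjusted p = 5.4e-06), a value that passed the fold limit with pseudocount 0.1 (-1.07) and without E1KD Platr18 KD replicate 1 (-1.04). Tgfb2, with 3.38 and 3.37 CPM in E1KD SCR and 1.59 and 1.46 in E1KD Platr18 KD, was at -0.79 ± 0.075 and passed the limit with pseudocount 0.1 (-1.10). Tgfb1 and Id3 were at -0.15 ± 0.11 and -0.14 ± 0.13 (limma, adjusted p = 0.41 and 0.55). The mesenchymal markers summed to 767 to 832 CPM in E1KD SCR and 520 to 529 CPM in E1KD Platr18 KD. The epithelial list summed to 2560 to 2830 CPM in E1KD SCR and 2220 to 2260 CPM in E1KD Platr18 KD. Fn1 (-1.59), Atoh8 (-1.21) and the corepressor gene Tgif2 (-1.28) fell. The E1KD SCR libraries are shared with the comparison against Empty vector.

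**Figure D5:**
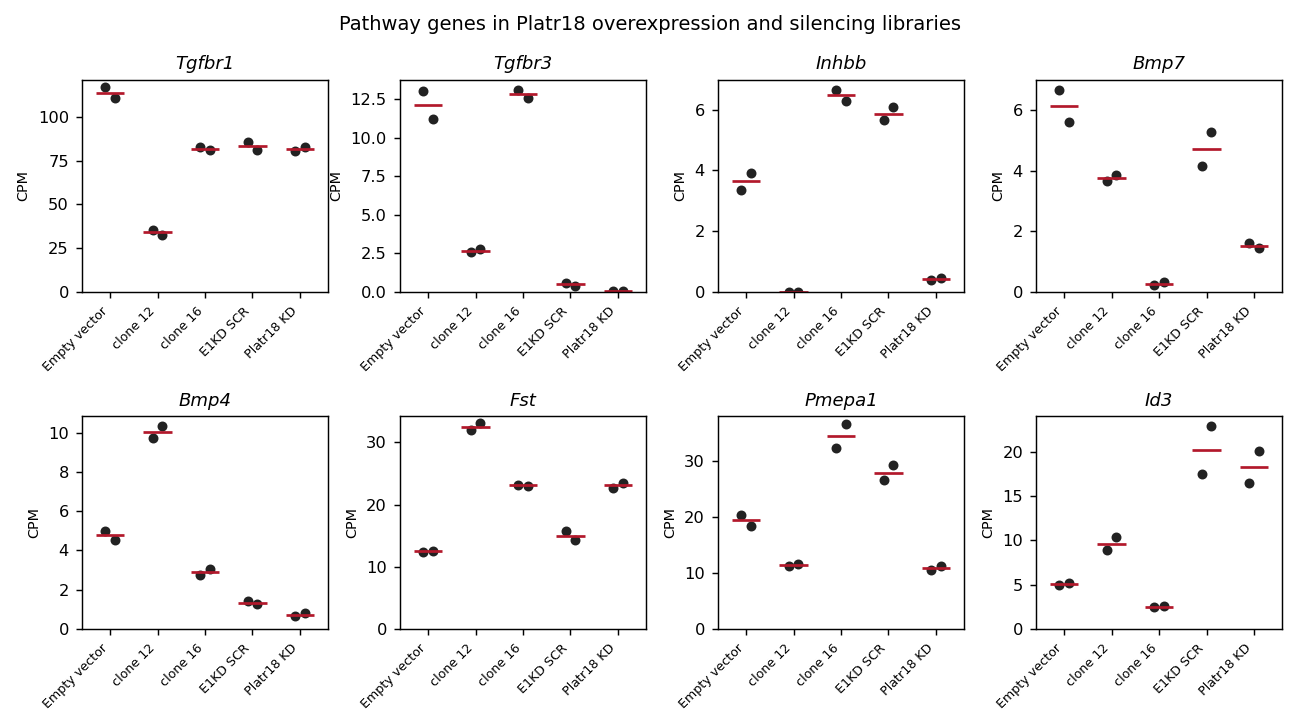
CPM (vertical axes, each from 0) of 8 pathway genes in the 2 libraries (points) and their mean (red line) for Empty vector, Platr18 clones 12 and 16, E1KD SCR and E1KD Platr18 KD. Tgfbr1, Tgfbr3 and Inhbb are low in clone 12, Bmp7 is low in clone 16, and Inhbb, Bmp7 and Pmepa1 are lower in E1KD Platr18 KD than in E1KD SCR.

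Other members in the vector lines were mostly under the fold limit. Id2 kept to a range of 267 to 319.5 CPM over these 10 libraries, and Bmp1 to 9.81 to 19.5 CPM. Id1 had 42.6 and 41.3 CPM in Empty vector, 31.7 and 39.4 in clone 12, 25.8 and 30.6 in clone 16, 62.9 and 78.0 in E1KD SCR, and 55.0 and 60.5 in E1KD Platr18 KD. Both E1KD lines were above the Empty vector and clone libraries. The corepressor genes were lower in the E1KD lines than in Empty vector. Ski had 22.7 and 20.97 CPM in Empty vector, 18.3 and 21.9 in clone 12, 24.04 and 24.8 in clone 16, 12.7 and 13.9 in E1KD SCR, and 11.3 and 11.6 in E1KD Platr18 KD. Skil had 90.5 and 81.9 CPM in Empty vector, 68.5 and 63.4 in clone 12, 68.5 and 66.6 in clone 16, 58.9 and 56.0 in E1KD SCR, and 41.5 and 42.0 in E1KD Platr18 KD. The differences between E1KD SCR and Empty vector were -0.68 ± 0.094 for Ski and -0.58 ± 0.083 for Skil, under the fold limit. Acvr1 and Bmpr2, the BMP receptor genes called after TGFβ, were not called here. Acvr1 had 7.66 and 7.31 CPM in Empty vector, 5.26 and 4.34 in clone 12, 8.48 and 8.52 in clone 16, 4.33 and 3.91 in E1KD SCR, and 2.44 and 2.64 in E1KD Platr18 KD. Bmpr2 had 58.7 and 51.2 CPM in Empty vector, 37.1 and 32.5 in clone 12, 57.6 and 58.7 in clone 16, 47.2 and 47.2 in E1KD SCR, and 38.2 and 40.0 in E1KD Platr18 KD. For both, clone 12 and the silenced cells were lower than Empty vector. Acvr2a, an activin type II receptor gene, had 28.6 and 25.8 CPM in Empty vector, 12.7 and 10.15 in clone 12, 20.2 and 19.6 in clone 16, 14.8 and 13.2 in E1KD SCR, and 12.9 and 12.2 in E1KD Platr18 KD. It was highest in Empty vector, with log2 fold changes of -0.91 ± 0.10 in E1KD SCR and -0.81 ± 0.087 in the averaged clones (limma, adjusted p = 4.7e-06 and 9.0e-06). Smad7, not called anywhere, had 20.6 and 18.4 CPM in Empty vector, 9.64 and 10.7 in E1KD SCR, and 5.88 and 6.21 in E1KD Platr18 KD, with log2 fold changes of -0.88 ± 0.099 for the first step and -0.66 ± 0.099 for the second. Smad1 ranged from 18.6 to 28.9 CPM, Smurf1 from 15.8 to 29.0 CPM, and Ltbp2 reached at most 0.0767 CPM in the vector lines.

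The members described above in some of the vector lines had these values in the others. Tgfb1 had 2.42 and 2.29 CPM in clone 12, 2.73 and 3.07 in clone 16, and 3.41 and 3.36 in E1KD Platr18 KD. Inhba had 27.9 and 24.7 CPM in clone 12 and 27.3 and 28.2 in clone 16. Both ligand genes were higher in each clone than in Empty vector, with log2 fold changes of 0.51 ± 0.095 and 0.49 ± 0.082 for the averaged clones, under the fold limit. Bmp2 had 0 reads in the clones and 0.971 and 1.39 CPM in E1KD Platr18 KD. Bmp4 had 0.645 and 0.783 CPM in E1KD Platr18 KD, below E1KD SCR. Ltbp1, the matrix tether of latent TGFβ, had 31.4 and 29.3 CPM in clone 12, 16.6 and 17.9 in clone 16, and 38.2 and 35.4 in E1KD Platr18 KD, where it was lower than in E1KD SCR by -0.87 ± 0.12 (limma, adjusted p = 0.00014). Lrrc32 had 0.0891 and 0.0614 CPM in clone 12, 0.208 and 0.391 in clone 16, and 0.0611 and 0.109 in E1KD Platr18 KD. It was thus below 0.4 CPM in each vector line. Ltbp4 had 0.0297 CPM and 0 reads in clone 12, 0.0138 and 0.0559 CPM in clone 16, and 0.808 and 0.538 in E1KD Platr18 KD. Tgfbr3 had 0.0517 and 0.0817 CPM in E1KD Platr18 KD, the lowest of the vector lines. Tgfbr1 had 85.9 and 80.8 CPM in E1KD SCR and 80.4 and 82.8 in E1KD Platr18 KD, which overlap. Smad2 had 38.9 and 39.2 CPM in clone 12, 39.4 and 36.9 in clone 16, and 17.5 and 17.1 in E1KD Platr18 KD. Both E1KD lines were at less than 0.5 of the Smad2 level of the other vector lines. Fst had 15.7 and 14.3 CPM in E1KD SCR and 22.7 and 23.5 in E1KD Platr18 KD, and Id3 had 16.5 and 20.1 CPM in E1KD Platr18 KD.

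Across the 7 comparisons of the study's conditions, 26 members were called in at least 1 and 14 of those tested in 0. The share of all genes called in at least 1 of the 7 was not worked out. The count of 26 is therefore a listing and not a result about the pathway. The 7 leave out the direct differences between E1KD and TGFβ, between the clones and between the kinds of library, of which the first called Ltbp3. The 14 were Ltbp3, Tgfbr2, Acvr1b, Acvr2a, Acvr2b, Bmpr1a, Smad3, Smad4, Smad5, Smad6, Smad7, Smurf2, Tgif1 and Bambi, among which are the common mediator Smad4 and the activin receptor genes Acvr1b, Acvr2a and Acvr2b. Of the genes too low to test, Id4 had 0.905 and 0.887 CPM in E1KD, 0.406 and 0.286 in E1KD SCR, at most 0.0407 in E1KD Platr18 KD, and 0 reads in the other 14 libraries. Against a floor of 3 reads per library, E1KD exceeded NMuMG at least 16.3-fold and E1KD SCR exceeded Empty vector at least 8.18-fold. Smad9, the BMP Smad also called Smad8, had 0 or 1 read in each NMuMG and TGFβ library, 0.748 and 0.721 CPM in E1KD, 0.332 and 0.337 in M1P, and 1.20 and 0.932 in L1P. It had at most 0.122 CPM in the vector-line libraries. Tgfb3 ranged from 0.0446 to 1.09 CPM, and Ttll5, which overlaps it on the other strand, had up to 13.4 CPM. Bmpr1b ranged from 0 to 0.434 CPM. Bmp6 had at most 0.0698 CPM, and Txndc5, which overlaps it on the other strand, had up to 177 CPM. The BMP antagonists Nog and Grem1 had 3 reads or fewer in every library, at most 0.0554 CPM.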

How the data were processed

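RNA-seq libraries of 10 conditions, 2 each, were made from Trizol extracts. The authors aligned reads with Bowtie2 2.2.5 to GRCm38.p6, assigned them to the M18 gene models by expectation-maximization in Partek, and deposited CPM with 0.0001 added, which was subtracted here. Library sums were 54.7% to 79.7% of 1e6. Of low values (under 50 reads), 91.2% to 98.0% lay within 0.1 read of a whole number, so counts were not recovered.

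For 17103 genes log2(CPM + 1) entered a limma fit (version 3.58.1, R 4.3.3; lmFit and trended eBayes) of 10 group means, which left 10 degrees of freedom. Calls needed an adjusted p (Benjamini-Hochberg, over all genes) under 0.05 and a log2 change of 1 or more in size; this scale understates folds of low genes. The fit was tested on simulated data. With 2 against 2 libraries an exact permutation test cannot go below p = 0.333, so none was used. Duplicates differed by more than counting noise in each condition. The chi-square per degree of freedom was 18.1 in E1KD and from 1.26 in L1P to 2.87 in clone 12 among the others. The fit shares 1 spread, so it may understate the error of the comparisons with E1KD. Alternatives are given in the closing section. Exon lengths came from a GENCODE annotation of the same build. Members called in at least 1 of 7 comparisons are given by library, a few by their range over the vector lines; of other lists at most 3 called genes are named per comparison. The members and lists were chosen with earlier results of these data known. Tables used Python 3.11.15 with pandas 2.3.3. Results for some single genes are left out of the text.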

Additional observations from a re-analysis of the deposited data

Results flagged for a closer look

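The effect of hnRNP E1 silencing differed between the 2 kinds of library for 7 members by a test of the difference itself. E1KD against NMuMG exceeded E1KD SCR against Empty vector, on the log2(CPM + 1) scale, by 2.70 for Lrrc32, 2.36 for Inhbb, 1.78 for Bmp2, 1.68 for Inhba, 1.46 for Ltbp4, 1.01 for Tgfb1 and 1.00 for Id3 (limma, adjusted p = 1.6e-09, 9.3e-09, 1.3e-07, 5.9e-07, 0.00066, 0.00030 and 0.0011). Of these Inhba was higher in both E1KD libraries than in both NMuMG libraries and lower in both E1KD SCR libraries than in both Empty vector libraries. The difference for Ltbp4 was lost with pseudocount 0.1 (0.64; limma, adjusted p = 0.26), and in mean CPM its rise was 13.8-fold in E1KD and 16.1-fold in E1KD SCR. Tgfb1 and Id3 fell under the fold limit with median-of-ratios rescaling (0.84 and 0.84) and with equal sums (0.84 and 0.82), and without some single libraries.

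The Platr18 overexpression clones differed from each other for 7 members. Clone 16 less clone 12 was 2.90 for Inhbb, 1.92 for Tgfbr3, 1.51 for Pmepa1, 1.24 for Tgfbr1, -1.498 for Bmp4, -1.60 for Id3 and -1.90 for Bmp7 on the log2 scale (limma, adjusted p = 9.3e-12, 6.8e-08, 9.0e-09, 2.2e-08, 3.1e-08, 2.1e-07 and 3.0e-08). With 2 libraries a condition, no group was large enough for a test of outlying samples.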

How the results depend on the processing

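Settings moved the counts of members called from M1P to L1P, from E1KD to M1P and with Platr18 by over 1.5 times. At pseudocount 0.1, 8 members were called from E1KD to M1P (1 higher, 7 lower; 5 in the main analysis), 2 from M1P to L1P (main 1), 6 in the Platr18 clones (main 3) and 6 after Platr18 silencing (main 3). With the compared groups alone in the fit 2 were called from E1KD to M1P, with a mean of at least 5 CPM 0 from M1P to L1P, and with equal sums 2 from M1P to L1P. Clone 12 alone gave 5 and clone 16 alone 1. Leaving out 1 library at a time gave 21 to 22 members after TGFβ, 14 to 15 in E1KD, 15 to 18 between E1KD and TGFβ, 4 to 7 from E1KD to M1P, 1 to 2 from M1P to L1P, 6 to 8 in E1KD SCR, 3 in the clones, 7 between the clones, 3 to 4 after Platr18 silencing and 5 to 8 between the kinds of library. With a replicate block in the fit the counts were 22, 14, 16, 5, 1, 6, 3, 7, 3 and 7 in the same order, as without the block. Same-numbered libraries did not deviate together (correlations from -0.40 to 0.29), so the numbers were not taken as pairs. No member changed direction among the values called.

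Over all genes tested, the number called at pseudocount 0.1 and with means of 5 CPM or more was 2716 and 1047 in E1KD (main 1733), 1520 and 435 from E1KD to M1P (main 737), 490 and 117 from M1P to L1P (main 209), 1743 and 559 in E1KD SCR (main 1025), 622 and 127 in the clones (main 249), 1394 and 476 between the clones (main 750), 651 and 139 after Platr18 silencing (main 253), and 1201 and 325 between the kinds of library (main 625). Without E1KD replicate 2 it was 3078 in E1KD, 2023 from E1KD to M1P and 1785 between the kinds. With the compared groups alone it was 295 from E1KD to M1P, and clone 12 alone gave 626. Genes higher and lower were 1003 and 1329 after TGFβ, and 1275 and 1061 with median-of-ratios rescaling. With that rescaling and with equal sums, 1216 and 517 in E1KD became 809 and 698 or 1076 and 814. Likewise 3165 and 1057 between E1KD and TGFβ became 1892 and 1770 or 2844 and 1550, 199 and 538 from E1KD to M1P became 309 and 348 or 391 and 528, and 461 and 164 between the kinds became 335 and 220 or 438 and 324. Depth limits values on 3 reads or fewer, which are worth 0.0204 to 0.0591 CPM depending on the library.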
